A study of Mus musculus with 9 samples.

Results

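Stroma around CR2-TAg mouse prostate tumors was examined for 10 genes that run mitosis: the cyclin-dependent kinase Cdk1 and its B-type cyclins Ccnb1 and Ccnb2, the checkpoint kinase Bub1b, the Aurora kinases Aurka and Aurkb, survivin (Birc5), securin (Pttg1), and the spindle proteins Tacc3 and Nusap1. The genes were found by their symbols in the annotation of a spotted cDNA array. Of the 10, 8 had rows of their own, on 14 clones, among 8106 genes tested. Ccnb1 had no row, and Aurka shared its only row with another gene, so neither was given a value. Both groups were FVB males hemizygous for the CR2-TAg transgene, in which control sequences of the cryptdin-2 gene switch on the SV40 large T oncoprotein in neuroendocrine cells of the prostate. Invasive cancer stroma came from 6 mice at 24 weeks of age, and stroma beside prostate intraepithelial neoplasia (PIN) from 3 mice at 10 weeks (replicates 2, 3 and 4 of the labels), so stage and age cannot be told apart. The authors also took invasive stroma from a wider zone around the epithelium than PIN stroma, which cannot be told apart from stage either. Each sample was 1 mouse, its stroma was cut out by laser, and its amplified RNA was hybridized together with RNA pooled from 4 PIN samples. Every value below is the log2 ratio of a sample over that pool, so that 0 means the level of the pool and 1 a 2-fold higher level, and it says nothing about absolute abundance.

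Cdk1 bound to cyclin B is the kinase that drives cells into mitosis. Once chromosomes have condensed, Aurora kinases and their partners build and correct the spindle, BubR1 (the product of Bub1b) holds back anaphase until all chromosomes are attached, and securin keeps the protease separase inactive until the anaphase promoting complex destroys it. Survivin is a subunit of the chromosomal passenger complex with Aurora B, INCENP and borealin, and is also counted among the inhibitor of apoptosis proteins. Transcripts of these genes are low in resting cells and peak in late G2 and mitosis, and they are widely used as signs of proliferation. Their promoters are known for short elements, the cell cycle genes homology region (CHR, with the letters TTTGAA) and the CCAAT box bound by the factor NF-Y.

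Because the genes are read as a group, the start of their promoters is shown first. RefSeq (build GRCm38.p6) gave a window of 300 bases, 250 before and 50 after the start, for 9 of the 10 genes (Aurkb had no entry), and both strands were searched for TTTGAA, for its variant with the letters TTTAAA, and for CCAAT. The last 150 bases before the start are printed for the genes in which CCAAT was found and for Birc5, where capitals mark each TTTGAA and each CCAAT box, which reads ATTGG when it lies on the other strand. They lie at chr10:69352913-69353062 (minus strand, Cdk1), chr13:100786487-100786636 (minus strand, Ccnb1), chr9:70421555-70421704 (minus strand, Ccnb2), chr2:172370571-172370720 (minus strand, Aurka), chr2:118598061-118598210 (plus strand, Bub1b) and chr11:117849087-117849236 (plus strand, Birc5).
Cdk1: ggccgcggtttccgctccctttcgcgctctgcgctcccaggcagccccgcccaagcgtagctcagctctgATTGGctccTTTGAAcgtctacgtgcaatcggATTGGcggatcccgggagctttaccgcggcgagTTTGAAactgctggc
Ccnb1: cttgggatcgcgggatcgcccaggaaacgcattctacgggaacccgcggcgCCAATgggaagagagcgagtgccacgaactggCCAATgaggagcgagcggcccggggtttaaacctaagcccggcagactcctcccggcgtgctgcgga
Ccnb2: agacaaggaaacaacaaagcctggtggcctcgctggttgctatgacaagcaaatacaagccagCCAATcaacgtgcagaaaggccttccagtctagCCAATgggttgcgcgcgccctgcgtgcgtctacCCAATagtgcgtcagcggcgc
Aurka: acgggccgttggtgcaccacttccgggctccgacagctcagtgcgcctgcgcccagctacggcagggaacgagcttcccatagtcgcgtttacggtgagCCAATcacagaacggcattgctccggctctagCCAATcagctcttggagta
Bub1b: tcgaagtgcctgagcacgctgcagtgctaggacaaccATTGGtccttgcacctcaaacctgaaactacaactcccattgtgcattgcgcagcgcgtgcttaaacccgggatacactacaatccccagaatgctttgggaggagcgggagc
Birc5: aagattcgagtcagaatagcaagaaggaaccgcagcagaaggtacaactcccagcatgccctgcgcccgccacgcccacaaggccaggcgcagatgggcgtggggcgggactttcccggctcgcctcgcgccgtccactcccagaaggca

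CCAAT occurred in 5 of the 9 windows, against 37.4% of 32851 mouse promoters of the same length, and TTTGAA in 4 of 9, against 17.9%. The 4 genes with TTTGAA (Cdk1, Ccnb2, Bub1b and Aurka) all held CCAAT as well, a combination found in 7.0% of promoters. In Cdk1, TTTGAA stood at bases -71 to -66 and again at -15 to -10. Ccnb2 held it at -167 to -162 and at 5 to 10, Bub1b at 41 to 46 and Aurka at 33 to 38, outside the printed bases. TTTAAA was found in 3 of 9 windows (Ccnb1, Aurka and Birc5), against 13.2%, and reads the same on both strands; it is left in lower case above. In 4 genes CCAAT boxes came in pairs on the same strand with starts 32 bases (Cdk1, Ccnb1, Aurka) or 33 bases (Ccnb2, which had 3 boxes in such steps) apart. A pair at either distance occurred in 0.49% of promoters, a spacing looked for after the positions had been seen. Cdk1 held a further box in no such pair, at -208 to -204, outside the printed bases and 128 bases from the next. Pttg1, Tacc3 and Nusap1 had none of the 3 motifs in their windows, which says only that these letters do not occur there.

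Of the 8 measured genes, 7 were higher in invasive cancer stroma than in PIN stroma, by 1.74-fold for Tacc3 to 5.17-fold for Birc5, at an adjusted p under 0.15 from limma with Benjamini-Hochberg adjustment over all genes (the false discovery rate of the study). The share of all genes called higher was 3.75% (304 of 8106), and 1.89% were called lower. In 6 of the 8 genes the lowest invasive array was higher than the highest PIN array, against 4.86% of all genes, and the reverse was seen in 0 of 8, against 2.99%. Aurkb was the gene that did not pass. The 8 log2 differences were all above 0 with a median of 1.27, while the median over all genes was 0.02. The arrays were bulk samples, in which more dividing cells and more RNA per dividing cell cannot be told apart. The count depended on the test and on single arrays. The paper's methods tested each clone alone by a two-sample test, without stating its variance setting, and used 4 PIN arrays. Run here on gene means with 3 PIN arrays, such a test called 4 of 8 genes with unequal variances (Birc5, Cdk1, Bub1b and Tacc3). With equal variances it called 1 (Birc5). On the 14 clones, the unit of the methods, it called 0 with unequal and 1 with equal variances. In limma the count was 1 of 8 (Birc5) once PIN replicate 2 was left out, 2 (Birc5 and Ccnb2) for PIN replicate 3, and 4 for invasive replicate 4. Calls over all genes fell as well, from 304 to 28, 67 and 144 in these fits.

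**Figure D1:**
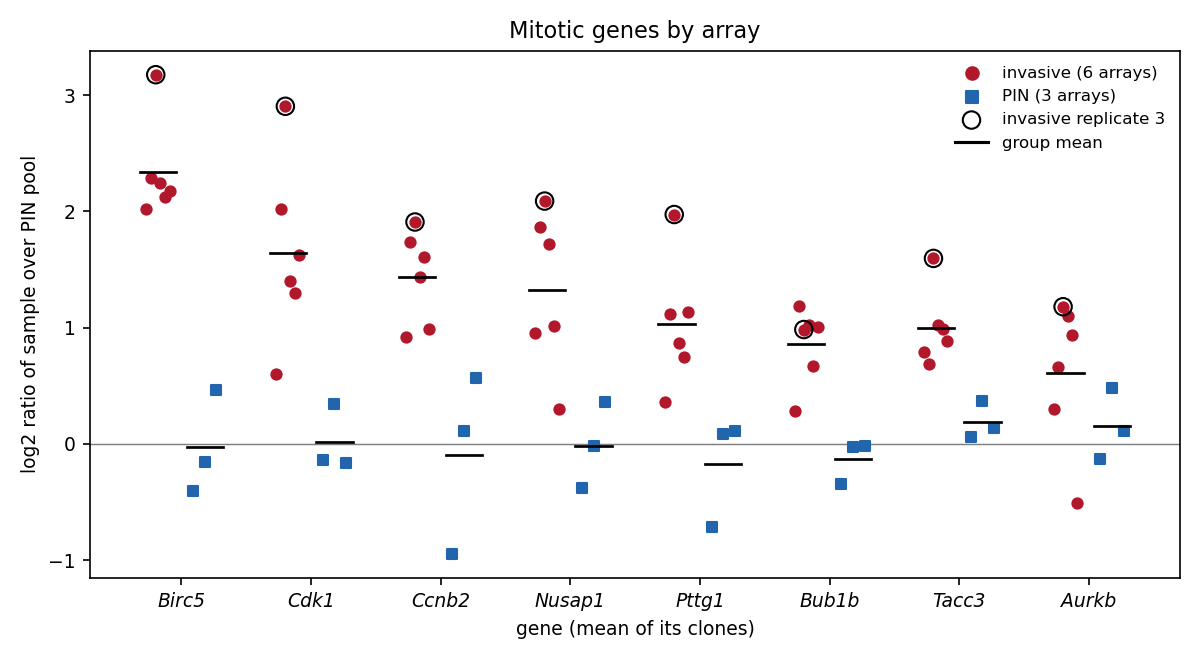
Log2 ratio of each sample over the PIN pool (y axis) for the 8 measured mitotic genes (x axis, mean of the clones of a gene), with 6 invasive arrays (red circles) left of 3 PIN arrays (blue squares), group means as black bars and invasive replicate 3 ringed. Birc5 lay between 2.02 and 3.17 in invasive stroma and no higher than 0.47 in PIN stroma, whereas the groups overlapped for Nusap1 and Aurkb.

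Among the kinase and cyclin genes, Cdk1 had a lowest, median and highest log2 ratio of 0.60, 1.52 and 2.90 on the invasive arrays, against -0.14, 0.34 and -0.16 on PIN replicates 2, 3 and 4. Invasive replicate 1 was the lowest and replicate 3 the highest, and the groups did not overlap. The mean was 1.64 ± 0.77 in invasive stroma (SD, n = 6) and 0.01 ± 0.28 in PIN stroma (SD, n = 3), a 3.09-fold difference (log2 1.63, SE 0.39, adjusted p = 0.0672 from limma). Cdk1 was spotted as 2 clones, and each passed among clones, with log2 differences of 1.33 (SE 0.32) and 1.93 (SE 0.50). The first clone read 0.90, 1.26 and 2.48 as lowest, median and highest in invasive stroma, and 0.12, 0.33 and -0.13 on PIN replicates 2, 3 and 4, without overlap. The second clone read 0.30 on invasive replicate 1 and 0.36 on PIN replicate 3, so that on this clone the groups overlapped. Without PIN replicate 2 or 3 the adjusted p for Cdk1 from limma was 0.261 or 0.176.

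Ccnb2, which encodes the B-type cyclin found largely at the Golgi apparatus, read 0.92, 1.52 and 1.91 as lowest, median and highest in invasive stroma, and -0.95, 0.11 and 0.56 on PIN replicates 2, 3 and 4. No invasive array fell as low as the highest PIN array, and the PIN arrays spread more widely than the invasive ones. Its mean of 1.43 ± 0.40 in invasive stroma (SD, n = 6) stood against -0.09 ± 0.77 in PIN stroma (SD, n = 3), which made it 2.88-fold higher (log2 1.52, SE 0.33, adjusted p = 0.0512 from limma). Without PIN replicate 2, its lowest array, the log2 difference was 1.10 with an adjusted p of 0.229 from limma. Ccnb2 also lost its call in the gene-by-gene tests, with an adjusted p of 0.387 under unequal and 0.203 under equal variances.

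Bub1b, the gene of the checkpoint kinase BubR1, gave 0.29, 0.99 and 1.19 as lowest, median and highest invasive value, against -0.35, -0.03 and -0.02 on PIN replicates 2, 3 and 4. Here invasive replicate 2 was the highest, and every invasive array was above every PIN array. Bub1b averaged 0.86 ± 0.33 in invasive stroma (SD, n = 6) and -0.13 ± 0.19 in PIN stroma (SD, n = 3), and was 1.98-fold higher (log2 0.99, SE 0.22, adjusted p = 0.0565 from limma). Its 2 clones passed only as a mean. Their log2 differences among clones were 1.18 (SE 0.35, adjusted p = 0.178 from limma) and 0.79 (SE 0.22, adjusted p = 0.152). On the first clone, invasive replicate 1 read -0.27 while the median was 1.15, so that on this clone the groups overlapped. On the second clone the same array read 0.84, close to the rest. Without PIN replicate 2 or 3 the adjusted p for Bub1b was 0.255 or 0.176.

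Of the chromosomal passenger genes, Birc5 passed and Aurkb did not. Birc5 showed the largest difference of the 8 genes. Its lowest, median and highest invasive values were 2.02, 2.21 and 3.17, against -0.41, -0.15 and 0.47 on PIN replicates 2, 3 and 4. Invasive replicates 1, 2, 4, 5 and 6 lay within a narrow band, and replicate 3 stood above it. Birc5 averaged 2.34 ± 0.42 in invasive stroma (SD, n = 6) and -0.03 ± 0.45 in PIN stroma (SD, n = 3), a 5.17-fold difference (log2 2.37, SE 0.28, 95% confidence interval 1.76 to 2.97, adjusted p = 0.00409 from limma). It ranked 2 of 8106 genes by p and 20 by the size of the log2 difference. Birc5 was spotted as 1 clone, so no other clone checks it. It passed when any of the 9 arrays was left out, with adjusted p from limma between 5.74e-04 and 0.0277.

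Aurkb, the catalytic subunit of the same complex, read -0.51, 0.80 and 1.18 as lowest, median and highest in invasive stroma, and -0.13, 0.48 and 0.11 on PIN replicates 2, 3 and 4. Invasive replicates 2 to 5 were above all PIN arrays, replicate 1 was among them, and replicate 6 was below them. The mean was 0.61 ± 0.64 in invasive stroma (SD, n = 6) and 0.15 ± 0.31 in PIN stroma (SD, n = 3), a log2 difference of 0.46 that did not pass (SE 0.34, 95% confidence interval -0.28 to 1.20, adjusted p = 0.589 from limma). That interval holds 0 as well as a change of more than 2-fold. The difference between Birc5 and Aurkb was not tested. The remaining subunits, looked up after their values had been seen, were Cdca8 (borealin), with a log2 difference of 0.95 (SE 0.31, adjusted p = 0.161), and Incenp, with 0.53 (SE 0.26, adjusted p = 0.369). Neither passed, although no invasive array of Cdca8 was as low as its PIN arrays.

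Pttg1, the securin gene, had 0.36, 0.99 and 1.97 as lowest, median and highest invasive value, and -0.72, 0.09 and 0.11 on PIN replicates 2, 3 and 4. On the mean of its clones the groups did not overlap, with invasive replicate 1 closest to the PIN arrays. Pttg1 averaged 1.03 ± 0.54 in invasive stroma (SD, n = 6) and -0.17 ± 0.47 in PIN stroma (SD, n = 3) and was 2.30-fold higher (log2 1.20, SE 0.32, adjusted p = 0.0981 from limma). Its 3 clones had log2 differences of 1.12 (SE 0.29), 1.07 (SE 0.36) and 1.43 (SE 0.46), of which the first passed among clones (adjusted p = 0.126) while the second and the third did not (adjusted p = 0.243 and 0.212 from limma). Invasive replicate 3 was the highest invasive array and replicate 1 the lowest on all 3 clones. The groups overlapped on the second clone (0.12 on invasive replicate 1, 0.59 on PIN replicate 3). They also overlapped on the third (0.58 on invasive replicate 1, 0.67 on PIN replicate 4). The call was lost without PIN replicate 2 or 3 (adjusted p = 0.36 or 0.202 from limma) and without invasive replicate 2, 4 or 6 (0.175, 0.154 or 0.159).

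Of the spindle genes, Tacc3 encodes a protein that joins clathrin and the microtubule polymerase of Ckap5 on kinetochore fibers after phosphorylation by Aurora A. It read 0.68, 0.93 and 1.60 as lowest, median and highest in invasive stroma, and 0.06, 0.37 and 0.14 on PIN replicates 2, 3 and 4. The groups stood apart, by a smaller gap than for Birc5. Tacc3 averaged 0.99 ± 0.32 in invasive stroma (SD, n = 6) and 0.19 ± 0.16 in PIN stroma (SD, n = 3), and was 1.74-fold higher (log2 0.80, SE 0.22, adjusted p = 0.103 from limma). Its 3 clones disagreed in size. The first read 1.00, 1.55 and 2.42 as lowest, median and highest on invasive arrays, against -0.44, 0.06 and 0.37 on PIN replicates 2, 3 and 4, whereas the third read 0.03, 0.45 and 0.86, against 0.28, 0.62 and -0.24. The first kept the groups apart and the third did not. The log2 difference was 1.63 on the first (SE 0.31, adjusted p = 0.0468 among clones), 0.53 on the second (SE 0.26, adjusted p = 0.462) and 0.25 on the third (SE 0.26, adjusted p = 0.804 from limma). With the median of the clones in place of their mean, the difference was 0.60 and did not pass (adjusted p = 0.249), nor did Tacc3 pass with arrays scaled to a common spread (0.67, adjusted p = 0.157) or quantile normalized (0.61, adjusted p = 0.173). Leaving out any single PIN array, invasive replicate 4 or invasive replicate 5 also ended the call, with adjusted p from limma between 0.169 and 0.333.

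**Figure D2:**
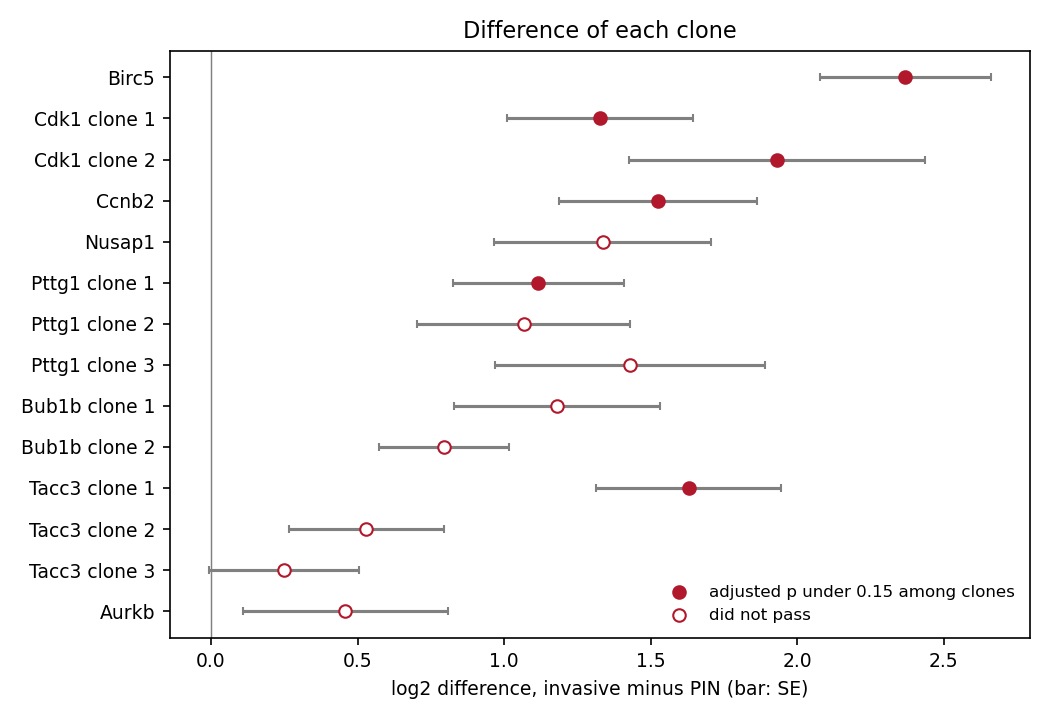
Log2 difference of each of the 14 clones, invasive minus PIN (x axis), with the SE as a bar, grouped by gene (y axis). All 14 points lie above 0, 6 are filled because they passed among clones in limma, and the clones of Tacc3 range between 0.25 and 1.63.

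Nusap1, whose product bundles microtubules near chromosomes, had 0.30, 1.37 and 2.09 as lowest, median and highest invasive value, against -0.38, -0.02 and 0.36 on PIN replicates 2, 3 and 4. Invasive replicate 6 fell below PIN replicate 4, and the other invasive arrays lay above all PIN arrays. The mean was 1.32 ± 0.68 in invasive stroma (SD, n = 6) and -0.01 ± 0.37 in PIN stroma (SD, n = 3), a 2.53-fold difference (log2 1.34, SE 0.36, adjusted p = 0.103 from limma). As 1 clone among clones it did not pass (adjusted p = 0.152). Nusap1 also lost its call without PIN replicate 2 or 3 (adjusted p = 0.35 or 0.263 from limma) and without invasive replicate 2 or 4 (0.186 or 0.192).

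Counted by clone, 6 of the 14 clones passed, against 1.52% of 17207 clones called higher, and in 7 of 14 the groups did not overlap, against 3.73% of clones with every invasive array the higher. All 14 differences were above 0. Clones of 1 gene share its transcript and are not independent of each other. The clone count was 1 without PIN replicate 2 or 3, 2 without invasive replicate 2, 4 or 5, and 10 without invasive replicate 3. The share of all clones called was not counted with arrays left out.

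The same arrays were often the highest or the lowest. Invasive replicate 3 was the highest array for 7 of the 8 genes, and invasive replicate 1 the lowest invasive array for 5. The median over the 8 genes was 0.70, 1.46, 1.94, 1.25, 1.00 and 0.995 on invasive replicates 1 to 6, and -0.36, 0.10 and 0.13 on PIN replicates 2, 3 and 4. PIN replicate 2 was the lowest PIN array for 7 genes. With invasive replicate 3 left out, the same 7 genes passed, with log2 differences between 0.68 (Tacc3) and 2.20 (Birc5).

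Invasive replicate 3 also stood apart in cell type markers. Neuroendocrine tumor markers, of which 7 of 20 were measured (Chga and Syp were not), had array medians of 0.74, 1.65, 2.12, 1.58, 0.43 and 0.34 on invasive replicates 1 to 6, and between -0.10 and -0.02 on PIN arrays. The 3 invasive arrays with the highest median over the mitotic genes (replicates 3, 2 and 4) were thus also the 3 highest for these markers, in the same order. The single markers did not all follow the median: on invasive replicate 3, 3 of 7 were at their highest (Foxa2, Ddc and Uchl1) and 2 at their lowest (Scg2, -0.51, and Neurod1, -0.53), while Scg3 peaked on replicate 2 and Snap25 on replicate 4. Of the 7 markers 1 passed, the transcription factor gene Foxa2, whose lowest, median and highest invasive values were 0.46, 2.32 and 4.45, against -0.48, -0.23 and 0.35 on PIN replicates 2, 3 and 4 (log2 difference 2.50, SE 0.64, adjusted p = 0.0871 from limma). Replicate 3 was in turn the lowest invasive array for macrophage markers (median 0.61, against 2.43 to 2.71 on the other invasive arrays and -0.34 to 0.43 on PIN arrays) and for fibroblast and pericyte markers (0.33, against 1.21 to 1.48 and -0.54 to 0.20), and likewise for endothelial markers (0.34, against 1.18 to 1.64 and -0.03 to 0.10). It was the highest invasive array for smooth muscle markers (-0.39, against -3.96 to -1.08 on the other invasive arrays and -0.60 to 0.36 on PIN arrays) and for epithelial markers (-0.11, against -1.25 to -0.80 and -1.11 to 0.65). The part of the cell makeup in the values of the mitotic genes was not tested.

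**Figure D3:**
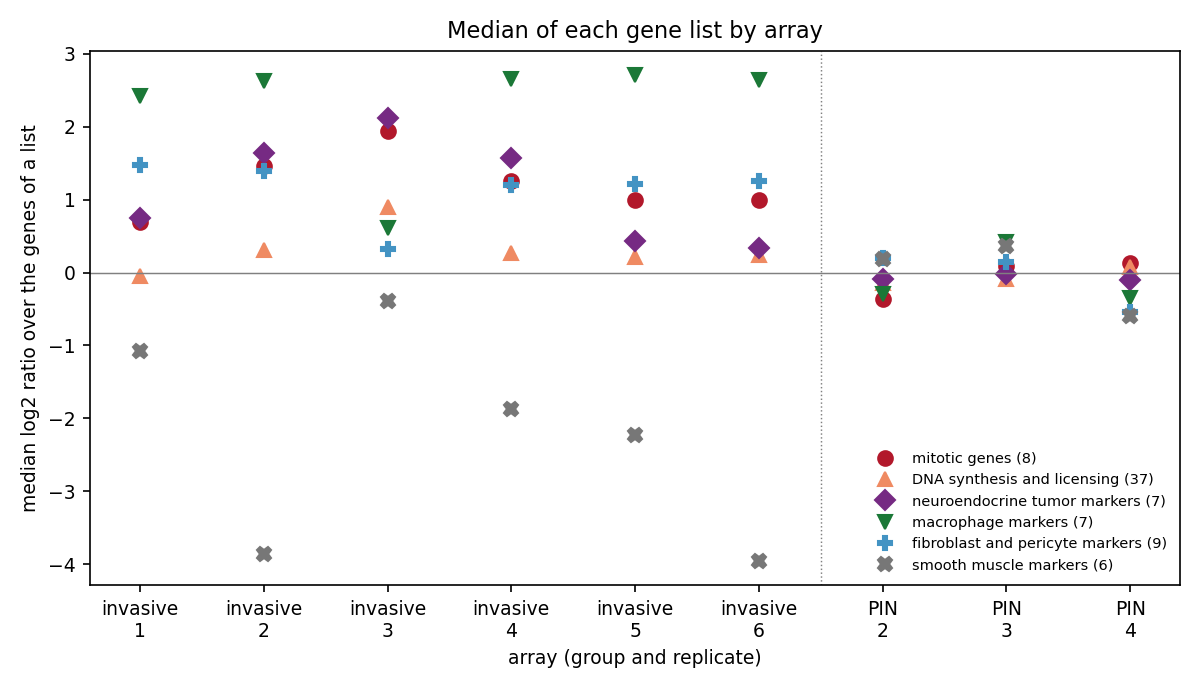
Median log2 ratio over the measured genes of a list (y axis) on each array (x axis), for the mitotic genes, DNA synthesis genes and 4 lists of cell type markers, with the number of measured genes in parentheses and a dotted line between invasive and PIN arrays. On invasive replicate 3 the mitotic genes (1.94) and neuroendocrine markers (2.12) were at their highest and macrophage markers (0.61) at their invasive lowest.

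In the other marker lists, 6 of 7 measured macrophage markers passed as higher in invasive stroma (Ms4a6d by 3.17 and Fcgr3 by 2.77 on the log2 scale), as did 4 of 9 fibroblast and pericyte markers (Col3a1 by 1.56 and Col1a2 by 1.55) and 2 of 7 endothelial markers (Esam by 1.53 and Emcn by 1.87). Of 6 smooth muscle markers 4 passed as lower, among them the myosin genes Myl9 (-2.23) and Myh11 (-2.57). Epithelial markers gave 1 higher (Krt7, 1.12) and 1 lower (Tspan8, -1.88) of 9, and neither of 2 lymphocyte markers passed, also without adjustment. In the gene-by-gene tests with unequal variances the marker calls were 6 macrophage, 2 fibroblast and pericyte and 2 endothelial markers, and 0 of the smooth muscle, epithelial and neuroendocrine markers; with equal variances they were 2 macrophage and 1 endothelial marker. Ratios to a pool show no level, so whether a marker was absent could not be read. Over clones, pairs of invasive arrays correlated at 0.26 to 0.77 and pairs of PIN arrays at 0.18 to 0.67. Pairs of an invasive and a PIN array correlated at 0.22 to 0.53, a range that overlaps both.

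The other genes of the cell cycle had smaller median differences. In the list of other mitotic kinases, phosphatases and cyclins, 2 of 20 measured genes passed as higher and 0 as lower, with a median log2 difference of 0.54. They were Ccna2, the cyclin A2 gene (1.13, SE 0.35, adjusted p = 0.14 from limma), and Cks2, which encodes a small Cdk-binding subunit (1.05, SE 0.33, adjusted p = 0.148). Ccna2 read 0.28 to 2.18 in invasive stroma and -0.19 to 0.08 in PIN stroma, without overlap.

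Checkpoint, kinetochore and other passenger genes gave 3 higher and 0 lower of 25, with a median of 0.42. Ndc80 and Nuf2, which form one end of the complex that grips microtubules, were 1.85 (SE 0.49, adjusted p = 0.0989 from limma) and 1.11 (SE 0.26, adjusted p = 0.064) higher, and the centromeric histone gene Cenpa 0.63 (SE 0.19, adjusted p = 0.135). Ndc80 ranged between 0.91 and 3.64 in invasive stroma and between -0.43 and 0.38 in PIN stroma. Of 15 genes of the anaphase promoting complex and its partners none passed in limma, and the median was 0.07. As 3.75% of all genes were called higher, a count of 0 in 15 does not set this list apart from all genes. At an unadjusted p under 0.05, 2 were higher and 0 lower, and the gene-by-gene tests called 0 with either variance. The nearest were its ubiquitin-conjugating enzyme gene Ube2c (0.97, SE 0.36, adjusted p = 0.219) and its activator gene Cdc20 (0.81, SE 0.36, adjusted p = 0.319).

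Spindle and cytokinesis genes gave 5 higher and 0 lower of 21, with a median of 0.59. The microtubule-destabilizing gene Stmn1 was higher by 2.57 (SE 0.63, adjusted p = 0.0708 from limma), the importin gene Kpna2 by 1.66 (SE 0.38, adjusted p = 0.0603), the dynein regulator gene Nde1 by 0.87 (SE 0.19, adjusted p = 0.0512) and the cytokinesis motor gene Kif23 by 0.76 (SE 0.20, adjusted p = 0.0906). Invasive replicate 3 read 5.12 for Stmn1, against a median of 2.14 over the invasive arrays and no more than 0.63 on a PIN array. Among DNA synthesis and licensing genes, 6 of 37 passed as higher and 0 as lower (median 0.49), led by the licensing factor gene Cdt1 (1.43, SE 0.32, adjusted p = 0.0565) and by Dbf4, the activating subunit of a replication kinase (0.76, SE 0.20, adjusted p = 0.0933). The replication clamp gene Pcna (1.37, adjusted p = 0.128) and the helicase gene Mcm6 (1.32, adjusted p = 0.14) followed.

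Chromosome structure genes gave 5 higher and 0 lower of 22, with a median of 0.21. They included the chromatin protein gene Hmgb2 (2.37, SE 0.55, adjusted p = 0.0619 from limma), the condensin genes Ncapg (0.93, adjusted p = 0.143) and Smc2 (0.64, adjusted p = 0.144), and the proliferation marker gene Mki67 (1.28, SE 0.40, adjusted p = 0.144). Mki67 read 0.50, 1.24 and 2.81 as lowest, median and highest in invasive stroma and no more than 0.29 in PIN stroma. In the list of inhibitor of apoptosis and caspase genes, counted without Birc5, 3 of 16 passed as higher and 0 as lower, with a median of 0.41. These were Birc2, another gene of the inhibitor of apoptosis family (0.80, SE 0.19, adjusted p = 0.0602), the inflammatory caspase gene Casp4 (1.40, SE 0.38, adjusted p = 0.101) and the survival gene Mcl1 (1.06, SE 0.31, adjusted p = 0.123). At an unadjusted p under 0.05, 60 of the 201 genes in the 9 lists were higher and 4 lower. The share of all genes under that unadjusted limit was not counted. The 60 and 4, and the counts of single lists at that limit, thus have no background here. The gene-by-gene tests with unequal variances called 8 higher and 1 lower, and with equal variances 2 and 0. Over all 8106 genes these tests called 142 and 36 higher. In limma 27 passed as higher, against 304 of all genes. Without PIN replicate 2 it was 0, against 28 of all genes, and without PIN replicate 3 it was 1, against 67. Leaving out invasive replicates 1 to 6 in turn gave 40, 8, 36, 10, 12 and 11. The same fits called 339, 159, 602, 144, 159 and 192 of all genes higher.

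**Figure D4:**
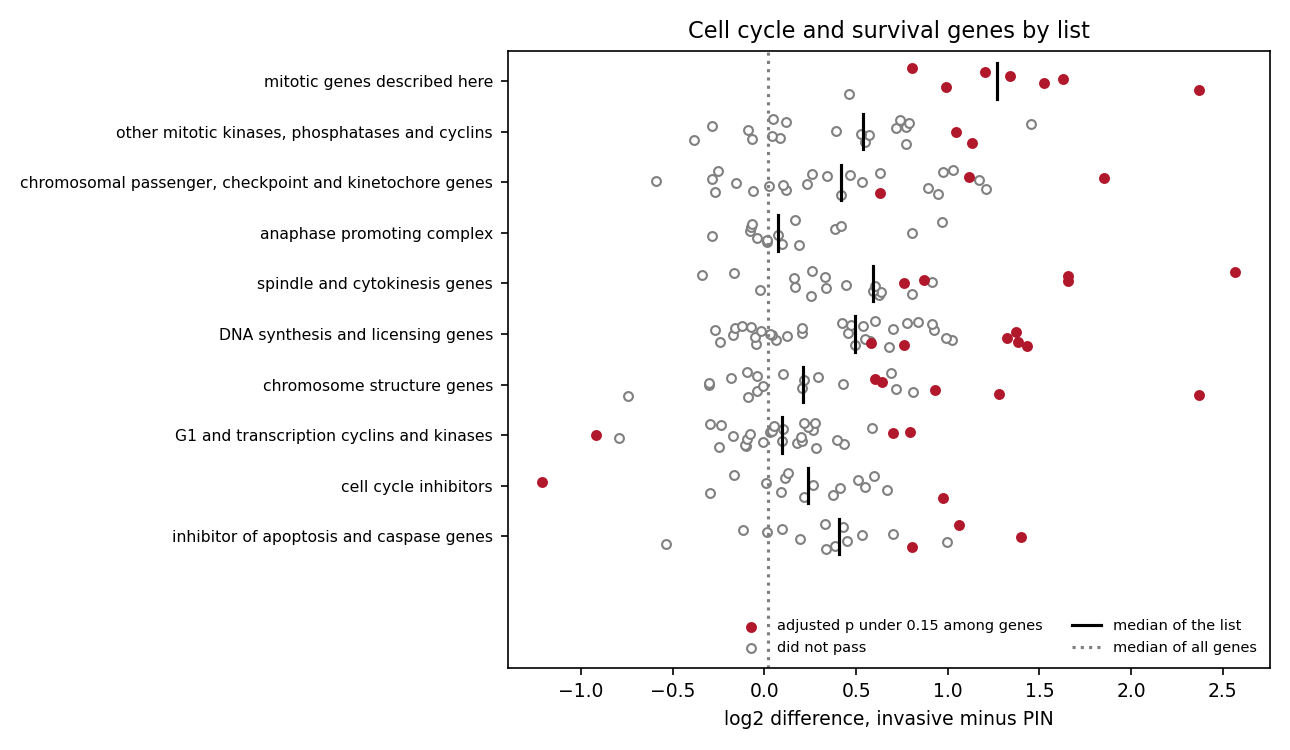
Log2 difference, invasive minus PIN (x axis), of every measured gene (1 circle each) in the mitotic genes described here and in 9 other lists (y axis), red where the adjusted p from limma was under 0.15, with the list median as a black bar and the median of all genes as a dotted line. The median was 1.27 for the mitotic genes, between 0.07 and 0.59 for the other lists and 0.02 for all genes.

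The genes outside all lists whose log2 ratios followed the median of the 8 mitotic genes most closely over the 9 arrays, among 7831 genes with a value on all of them, were Rptor, Ldha, Dynlt1b, Ubald2, Hsf2bp and Wdhd1. Their mean absolute difference to that median was 0.18, 0.25, 0.26, 0.27, 0.28 and 0.28 on the log2 scale. Rptor encodes the scaffold of the mTORC1 kinase complex, Ldha a lactate dehydrogenase subunit, Dynlt1b a dynein light chain and Wdhd1 a replication protein. Rptor read 0.65, 1.25 and 2.06 as lowest, median and highest in invasive stroma, against -0.09, -0.03 and 0.19 on PIN replicates 2, 3 and 4. Like the median of the mitotic genes, though not each of them, Rptor was lowest among invasive arrays on replicate 1 and highest on replicate 3. As these genes were picked for that likeness, no test was made of it.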

How the data were processed

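Microdissected stroma of 6 invasive and 3 PIN prostates was measured on 2-color arrays of 17664 spotted rows. The authors amplified the RNA, labelled samples with Cy5 and the PIN pool with Cy3, and quantified spots with ScanAlyze and the SMA package, using print-tip lowess without background subtraction. Values were deposited as log2 ratios, Cy5 over Cy3. No dyes were swapped, and PIN samples were compared with a pool that contains them. Arrays held 17189 to 17206 values. The array of PIN replicate 1 was not analysed here. No intensities were used, so signal over background is unknown.

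Of these rows 12563 carried 1 gene symbol in the platform table, 412 carried several and 4689 carried none. Each gene was the mean of its clones on an array. Whatever had values on 4 or more invasive and 2 or more PIN arrays was fitted with limma 3.58.1 in R 4.3.3 (lmFit, eBayes, two-sided, Benjamini-Hochberg), with 0.15 as the limit for the adjusted p. The script was tested on simulated data. The genes, lists and tests were chosen with earlier results of these data known. Named were all 10 genes, up to 4 passing genes of smallest p per cell cycle list, 1 or 2 per marker list and the 6 nearest genes. Leaving out single arrays, t-tests and the unadjusted p for the other lists were added after seeing the data.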

Additional observations from a re-analysis of the deposited data

Results flagged for a closer look

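For the 8 genes and the single clones of genes with several, 18 sets of 6 invasive arrays were checked for an array far from the rest. Of these, 3 showed one, where chance gives about 1 in 20 for a single set. The sets are not independent, as clones enter the mean of their gene. The limit was a gap of 0.625 of the range, which Tacc3 and the Bub1b clone barely exceeded. Invasive replicate 3 read 3.17 for Birc5, and its gap to the next array was 0.769 of the whole invasive range. The same array read 1.60 for Tacc3, with a gap of 0.626 of the range. On the first Bub1b clone, invasive replicate 1 read -0.27, the lowest value, with a gap of 0.626. Without invasive replicate 3, Birc5 had a log2 difference of 2.20 (adjusted p = 5.74e-04 from limma) and Tacc3 of 0.68 (adjusted p = 0.0554).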

How the results depend on the processing

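The 8 log2 differences stayed above 0 under every alternative run. Of the mitotic genes, 7 passed among genes, 6 clones passed among clones, and 304 genes were called higher. The methods name a two-sample t-test without saying how variances were treated; with unequal variances (Welch) these counts were 4, 0 and 142, and with equal variances 1, 1 and 36. At an adjusted p under 0.05 they were 1, 2 and 57. Array weights gave 11 clones and 1010 genes, and invasive arrays set against 0 gave 14 clones and 1415 genes. Replicate numbers only name mice (deviations of same-numbered arrays correlated at -0.138, -0.049 and -0.045), and with them as a replicate block the counts were 4, 2 and 77. Leaving out single arrays gave 1 to 7 genes, 1 to 10 clones and 28 to 602 genes called higher in all. It gave 0 to 6 other mitotic kinases, phosphatases and cyclins, 0 to 6 passenger, checkpoint and kinetochore genes, 0 to 1 of the anaphase promoting complex, 0 to 9 spindle genes, 0 to 10 DNA synthesis genes, 0 to 5 chromosome structure genes, 0 to 3 G1 and transcription genes, 0 to 2 inhibitors and 0 to 4 apoptosis genes. Among genes, Birc5 passed in all 22 alternatives (log2 difference 2.18 to 2.62, highest adjusted p 0.13, from Welch's test). Among clones, Welch's test called no clone of the mitotic genes, so the Birc5 clone did not pass there. Aurkb passed when invasive arrays were set against 0 (0.61, adjusted p = 0.0655 from limma) and under no other alternative. The cause of these shifts was not tested.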

Other observations

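Genes that act before mitosis or hold it back passed in small numbers each way. As shares of their lists these were not below those of all genes, 3.75% called higher and 1.89% called lower. Of 29 G1 and transcription cyclins and kinases, 2 passed as higher in invasive stroma, the G1 kinase genes Cdk6 (0.79 on the log2 scale, SE 0.22, limma adjusted p = 0.115) and Cdk4 (0.70, SE 0.21, adjusted p = 0.139), and 1 as lower, Cdk18 (-0.92, SE 0.21, adjusted p = 0.0602). The list median was 0.10. Of 16 cell cycle inhibitor genes, the antiproliferative gene Btg1 passed as higher (0.97, SE 0.22, adjusted p = 0.0565) and the growth arrest gene Gas1 as lower (-1.21, SE 0.37, adjusted p = 0.139), with a list median of 0.24. Gas1 read -1.65 to -0.59 in invasive stroma and -1.05 to 0.80 in PIN stroma, so that its groups overlapped. Without PIN replicate 2 none of these genes passed as higher, and of all genes only 28 did.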
